A study of Mus musculus with 24 samples.

Results

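The comparison described here set the 2 kinds of control culture of the study against each other. LeGO-GFP cells carried a lentivirus that makes green fluorescent protein, siNEG cells had received a control siRNA, and both had been given lactogenic hormones (+LH). The 6 arrays were chosen by their labels alone, 3 LeGO-GFP and 3 siNEG arrays, out of 24 arrays in the series. The study measured what gain or loss of the long noncoding RNA *mPINC* does to HC11 cells, a line derived from mouse mammary epithelium that turns on milk protein genes with hormones. Its knockdown arms used siRNA and its overexpression arms used lentivirus, so each kind of delivery had its own control.

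Both groups were HC11 cells given hydrocortisone, insulin and prolactin. The methods name 24 or 72 h with prolactin and hydrocortisone, in a medium that already held insulin, and the time used for the arrays was not given in the sources used here. siNEG cells were transfected with a Silencer Select negative control siRNA at 10 nM in Lipofectamine RNAiMAX, a lipid reagent. LeGO-GFP cells were transduced at a multiplicity of infection of 20, that is 20 viral particles a cell, grown for 2 passages, aliquoted and frozen before use. GFP itself had no named probe on the array, so transduction was not checked in these data. The methods call the 3 samples of a group biological replicates and do not say whether each had its own transfection or transduction, so the p-values below measure the spread between these samples.

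As background, prolactin binds its receptor on the mammary cell, the kinase JAK2 then phosphorylates STAT5, and STAT5 turns on the casein genes together with the glucocorticoid receptor. Cells that detect viral nucleic acid or a bacterial product switch on interferons, which turn on a set of antiviral genes, and NF-kB, which turns on cytokines and acute phase proteins. Genes of both kinds are described here, together with markers of the epithelial cell types and of other cell types.

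Each array held probes for mouse transcripts and the text gives levels as log2 signal after quantile normalization. A level is compared only with the same probe on other arrays. Differences are LeGO-GFP minus siNEG, and a probe was called when its adjusted p in limma was under 0.05. Between 24021 and 29974 of 55681 probes were well above background on the 6 arrays, and no spot was saturated. Arrays correlated at 0.988 to 0.9938 within siNEG, at 0.9908 to 0.9972 within LeGO-GFP and at 0.9594 to 0.9672 between the groups. These values are over the bright probes, those well above background on all 3 arrays of at least 1 group. The epithelial markers *Epcam* and *Cdh1* lay at 12.51 to 12.82 and 12.11 to 12.4 on the 6 arrays, and neither was called (log2 differences -0.15 ± 0.08 and -0.07 ± 0.09, SE, n = 3 per group). Among the epithelial keratins, described below, *Krt8* and *Krt18* were called lower, *Krt5* was called higher and *Krt14* was not called. Of 6 measured macrophage markers, *Lyz2* (1.87 to 1.96) and *Tyrobp* (1.89 to 2.01) were above background on no array of either group, and *Ptprc* and *Adgre1* were so on 1 and 4 of the 6 arrays. *Itgam* (11.03 to 11.85) and *Csf1r* (8.31 to 10.27) were above background on all 6. The summed level of the 6 markers was 11.34 to 12.05 in LeGO-GFP and 11.80 to 12.09 in siNEG cells, and no member was called in the fit of the 6 arrays.

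The 6 arrays lay on 3 slides. Replicate 1 of both groups shared slide 1, the other siNEG arrays lay on slide 2 and the other LeGO-GFP arrays on slide 3. The replicate 1 pair is therefore the within-slide comparison. Slide, lipid transfection, transduction, passages and freezing differed between the groups in the other arrays and cannot be told apart there, and within the replicate 1 pair all but the slide still differ.

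LeGO-GFP and siNEG cells differed at 8859 of 55681 probes (15.9%), 3659 higher (6.57%) and 5200 lower (9.34%) in LeGO-GFP cells. With 1 probe kept for each of 20158 named genes, the brightest over the 6 arrays, 2168 genes were higher (10.8%) and 2386 lower (11.8%). The median difference of the called genes was 0.80 among the higher and 0.55 in size among the lower. More genes were higher by over 2-fold (888, 4.41%) than lower by over 2-fold (484, 2.4%). Over all probes the balance was the other way, with 1518 higher and 1706 lower by over 2-fold. The median difference over all genes was -0.01.

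The largest rises in LeGO-GFP cells included several secreted proteins. *Saa1*, a serum amyloid A acute phase protein, lay at 12.91, 12.71 and 12.68 in LeGO-GFP replicates 1 to 3 and at 6.49, 6.76 and 6.37 in siNEG replicates 1 to 3. *Hp*, haptoglobin, which binds free haemoglobin, lay at 17.23, 17.29 and 17.40 against 11.75, 11.59 and 12.09. The 3 LeGO-GFP arrays stood far above the 3 siNEG arrays for both genes, by 74.8-fold for *Saa1* (log2 difference 6.23 ± 0.13, SE, adjusted p = 0.000124) and by 45.1-fold for *Hp* (5.50 ± 0.14, adjusted p = 0.000172). *Clu*, the secreted chaperone clusterin, lay at 17.49, 17.37 and 17.34 against 12.75, 12.64 and 12.83, a 25.3-fold difference (adjusted p = 5.85e-05). *Lrg1*, a leucine-rich glycoprotein of the acute phase, lay at 8.75 to 8.80 against 4.38 to 5.25 and was 15.9-fold higher.

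Other members of the 12 largest rises had other roles. *Ankrd1*, a muscle and stress-responsive ankyrin repeat protein, lay at 11.84, 11.63 and 11.53 against 6.44, 6.12 and 6.02 and was 44.3-fold higher (adjusted p = 0.000178). *Kcnj15*, a potassium channel, was 23.3-fold higher, *Ccn5*, a secreted matricellular protein, 18.4-fold higher, and *Rab38*, a small GTPase of vesicle traffic, 14.0-fold higher. *Ly6a*, the surface antigen Sca-1, which the study used as a marker of mature luminal cells, was 13.6-fold higher at 13.17 to 13.24 against 9.41 to 9.54. *Bst1*, a cell surface enzyme that cleaves NAD, was 13.1-fold higher. For each of these genes the lowest LeGO-GFP array lay above the highest siNEG array, which the choice of the 12 required.

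Some genes were above background on the LeGO-GFP arrays alone, and for these the data give a lower bound. *Saa2* lay at 11.88, 11.80 and 11.78 in LeGO-GFP cells and was not well above background on any siNEG array (1.87 to 1.94). It was at least 194-fold higher, with the bound taken against the lowest signals that the siNEG arrays could tell from background (adjusted p = 3.94e-06). *Saa3* was at least 111-fold, *Il6* at least 33.3-fold and *Acod1*, which makes the antimicrobial metabolite itaconate, at least 28.5-fold higher. *Saa1* and *Saa2* are near-identical in sequence, and probes of such pairs can share signal.

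**Figure D1:**
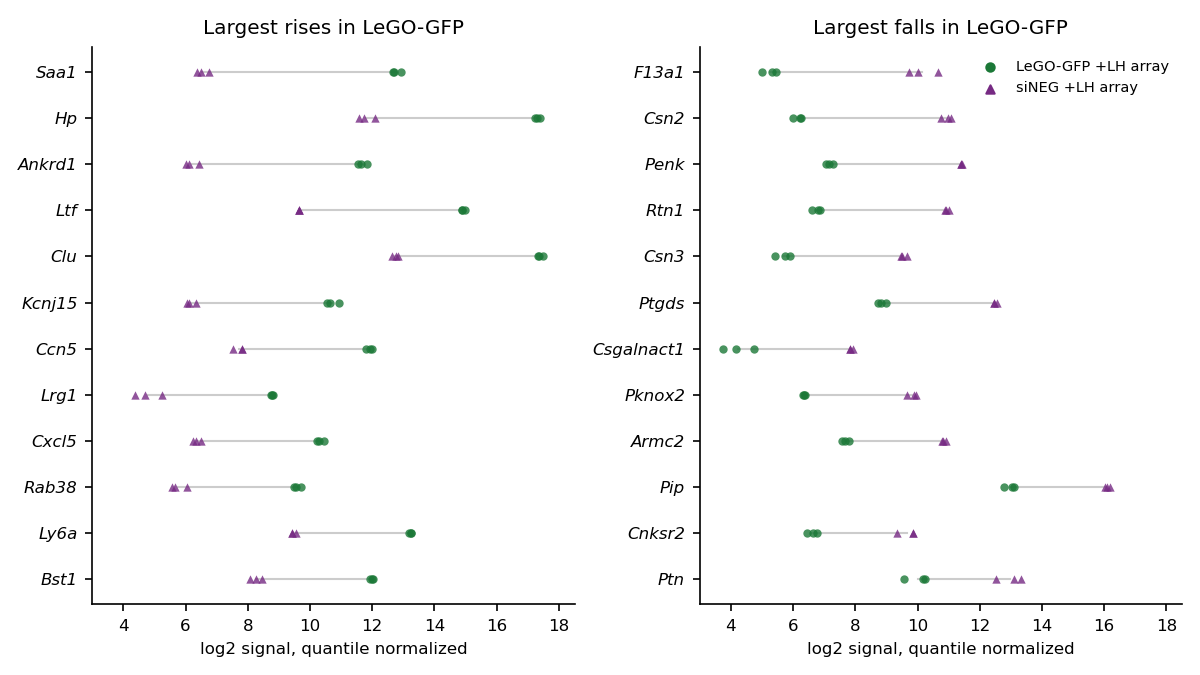
Log2 signal of the 12 genes with the largest rise (left) and the 12 with the largest fall (right) among genes above background on all 6 arrays. Each point is 1 array (circles LeGO-GFP +LH, triangles siNEG +LH), a grey line joins the group means, and the points of the groups do not overlap for any of the 24 genes, which the choice of the genes required.

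The largest falls were of a mixed kind. *F13a1*, the A subunit of the clotting factor that crosslinks fibrin, lay at 4.99, 5.31 and 5.46 in LeGO-GFP cells against 10.02, 9.72 and 10.65 in siNEG cells, 29.4-fold lower (log2 difference -4.88 ± 0.28, SE, adjusted p = 0.000936). *Penk*, the precursor of the enkephalin peptides, lay at 7.07, 7.15 and 7.27 against 11.39, 11.43 and 11.41 and was 18.9-fold lower (adjusted p = 5.49e-05). *Ptgds*, which makes prostaglandin D, lay at 8.73 to 9.0 against 12.47 to 12.56 and was 12.6-fold lower. The groups stood apart on every array for these genes, which their choice required. *Rtn1*, a reticulon of the endoplasmic reticulum, was 18.1-fold lower, *Csgalnact1*, an enzyme of chondroitin sulfate synthesis, 12.4-fold lower, and *Pknox2*, a homeodomain factor, 11.1-fold lower. *Armc2* was 8.94-fold lower, *Cnksr2*, a scaffold of RAS signalling, 8.28-fold lower, and *Ptn*, the growth factor pleiotrophin, 7.87-fold lower. *Gria4*, a glutamate receptor subunit, *B4galnt3*, *Tox* and *Cdh19* were above background on all siNEG arrays and on no LeGO-GFP array, at least 8.69-fold, 5.77-fold, 4.93-fold and 4.39-fold lower.

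The casein genes were the other part of the largest falls. *Csn2*, which encodes beta-casein, lay at 6.00, 6.21 and 6.24 in LeGO-GFP cells and at 10.98, 10.76 and 11.08 in siNEG cells. It was 27.6-fold lower (log2 difference -4.79 ± 0.12, SE, adjusted p = 0.000148). *Csn3*, kappa-casein, lay at 5.73, 5.43 and 5.89 against 9.49, 9.46 and 9.65 and was 14.4-fold lower (-3.85 ± 0.14, adjusted p = 0.000311). The other, dimmer probe of *Csn3* was not called. *Csn1s1*, an alpha-casein, lay at 4.40, 2.91 and 3.87 against 6.55, 6.68 and 6.53, and was above background on 1 of 3 LeGO-GFP arrays (-2.86 ± 0.40, adjusted p = 0.0107). *Csn1s2b* fell by 1.14 ± 0.26 (adjusted p = 0.0465, 2 of 3 LeGO-GFP arrays above background). Within the shared slide it differed by -1.65 without being called (adjusted p = 0.326). *Csn1s2a* was called lower although it was above background on no array of either group, so no fold is given. *Pip*, the prolactin-inducible protein, lay at 12.77, 13.03 and 13.11 against 16.09, 16.03 and 16.17 and was 8.73-fold lower (adjusted p = 0.000294).

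The other milk genes moved in both directions. Of 20 genes of milk protein and milk fat, 30% were called higher and 35% lower, against 10.8% and 11.8% of all genes. The 5 caseins were all called lower. Of the other 15, 6 were higher, 2 lower and 7 not called, with a median of 0.35. Without both replicate 1 arrays 3 of the 20 were called lower and 4 higher. *Ltf*, the iron-binding milk and defence protein lactoferrin, went the other way from the caseins at 14.88, 14.97 and 14.88 against 9.64, 9.63 and 9.65, 38.6-fold higher (adjusted p = 1.59e-05). *Wap*, whey acidic protein, was above background on the 3 LeGO-GFP arrays (4.25, 5.15 and 5.04) and on no siNEG array (2.34, 2.01 and 2.71), at least 1.51-fold higher. *Xdh* and *Mfge8*, of the milk fat globule, differed by 1.24 ± 0.07 and 1.04 ± 0.05 and rose. *Plin2*, a lipid droplet coat protein, and *Fasn*, fatty acid synthase (adjusted p = 0.0505 within the shared slide), differed by -0.54 and -0.46 and fell, as the caseins did. *Lalba*, alpha-lactalbumin of lactose synthesis, lay at 6.80 to 6.98 against 5.60 to 6.44 and was not called (adjusted p = 0.0932).

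The levels in the other cultures place the caseins. In siNEG cells without hormones (-LH), *Csn2* was at 1.97 (mean of 2 arrays) and above background on neither, so the hormone-treated LeGO-GFP cells lay between these and the hormone-treated siNEG cells. *Csn3* was at 6.65 without hormones, above the 5.68 ± 0.23 (SD, n = 3) of hormone-treated LeGO-GFP cells. *Pip* was at 11.5 without hormones and at 12.97 ± 0.18 (SD, n = 3) in LeGO-GFP cells. LeGO-DCR cells, which overexpress a shortened *mPINC* without its end exons, had *Csn2* at 6.48, *Csn3* at 6.11 and *Ltf* at 15.04, near the LeGO-GFP values. siPINC cells, transfected with siRNA against *mPINC*, had *Csn2* at 11.12, *Csn3* at 10.34 and *Ltf* at 10.91. LeGO-1.0/1.6 cells, which overexpressed *mPINC*, had *Csn2* at 1.90, above background on none of 3 arrays. These values are given side by side and were not tested, and the arms lay on different slides.

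**Figure D2:**
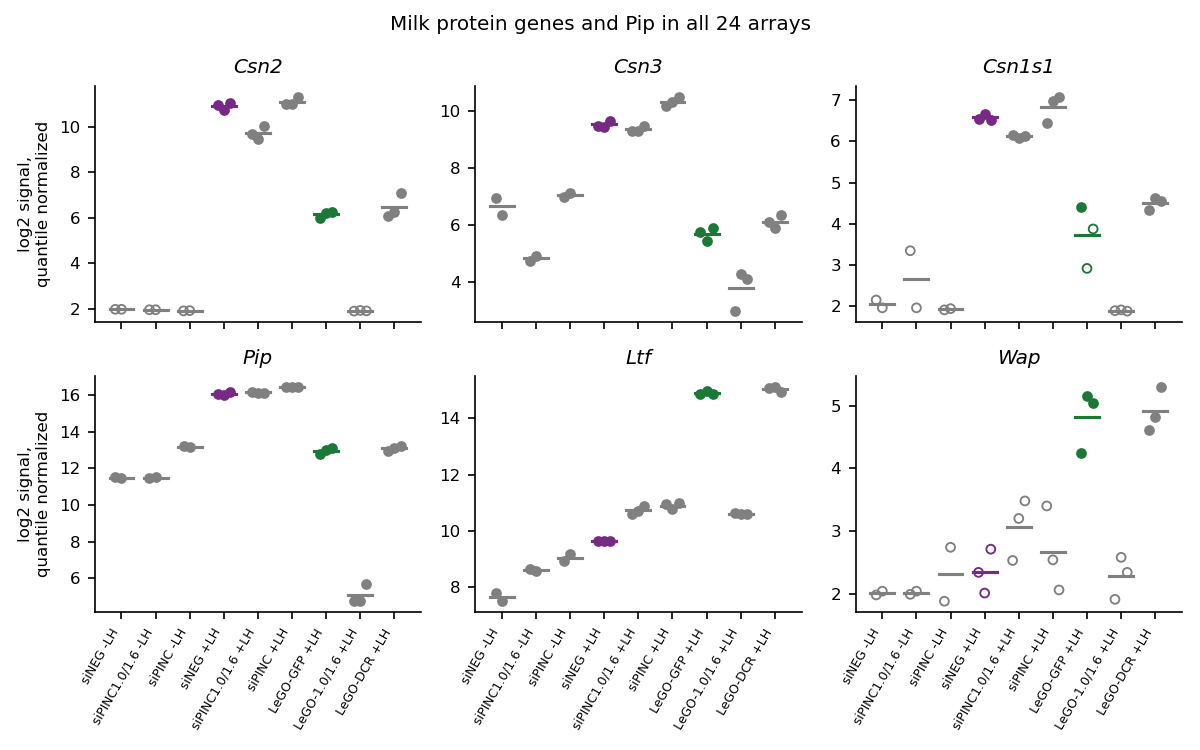
Log2 signal of 5 milk protein genes and *Pip* on all 24 arrays, by group. Each point is 1 array, open where the probe was not well above background, and each line is a group mean (green LeGO-GFP +LH, purple siNEG +LH). *Csn2* lies near 11 in siNEG +LH and near 6 in LeGO-GFP +LH, while *Ltf* lies near 10 and 15.

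The promoters of *Csn2* and *Csn1s1* are shown because these were the 2 most changed casein genes with a RefSeq promoter window that holds TTCNNNGAA, the core letters read by STAT5. The letters were searched on both strands in 250 bases before to 50 bases after each start (GRCm38.p6), and only the bases before the start are printed, 5′ to 3′ on the gene's strand with the match in capitals. The *Csn2* stretch is chr5:87699426-87699675 on the minus strand and the match starts at -93 from the start site. The *Csn1s1* stretch is chr5:87665958-87666207 on the plus strand and the match starts at -100.
Csn2: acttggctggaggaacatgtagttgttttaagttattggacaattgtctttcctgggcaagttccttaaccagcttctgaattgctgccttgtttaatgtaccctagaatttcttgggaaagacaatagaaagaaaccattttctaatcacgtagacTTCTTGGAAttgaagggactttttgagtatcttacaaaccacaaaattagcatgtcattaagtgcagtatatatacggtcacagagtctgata
Csn1s1: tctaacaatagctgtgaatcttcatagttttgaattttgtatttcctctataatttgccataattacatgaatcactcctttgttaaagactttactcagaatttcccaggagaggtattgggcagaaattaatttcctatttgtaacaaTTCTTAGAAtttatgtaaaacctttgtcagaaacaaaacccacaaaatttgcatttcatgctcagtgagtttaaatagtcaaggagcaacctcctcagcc
Of 14 milk genes with a window, 4 held the letters (28.6%), against 9.55% of all 27025 genes with a window. A match is a description of the letters and not of binding. *Csn3* had no window.

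Of 10 genes of the prolactin receptor pathway, 6 fell (60%, against 11.8% of all genes), 2 rose (20%, against 10.8%) and 2 were not called. The list median was -0.53. *Stat5a* lay at 9.25, 9.34 and 9.39 against 10.46, 10.32 and 10.43, and *Stat5b* at 10.18, 10.10 and 9.99 against 11.10, 11.11 and 11.09. The groups did not overlap for either factor, and they were 2.11-fold and 2.01-fold lower (adjusted p = 0.00118 and 0.00119). *Prlr*, the receptor, and *Jak2*, its kinase, fell by 0.59 and 0.56 on the log2 scale. *Elf5*, the alveolar transcription factor that acts with STAT5, fell by 0.50 (adjusted p = 0.0172), and *Socs2*, a target and inhibitor, by 0.98. The inhibitors *Socs1* and *Socs3* rose, by 1.55 ± 0.16 and 1.04 ± 0.05. *Cish*, another STAT5 target, lay at 8.87 to 8.94 against 8.91 to 9.05 and was not called. Within the shared slide, where 9.71% of all genes were called lower, 5 of the 6 falls were called, and *Elf5* differed by -0.46 without being called (adjusted p = 0.114).

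The glucocorticoid receptor gene *Nr3c1* fell by 0.74 (11.61 to 11.68 against 12.27 to 12.54, adjusted p = 0.00583). Of 14 genes of the receptor and its targets, 5 fell (35.7%) and 3 rose (21.4%), against 11.8% and 10.8% of all genes. Without both replicate 1 arrays 2 were called lower and 2 higher. *Tsc22d3*, a classic target, fell by 0.42 and *Per1*, a clock gene, by 0.66. *Dusp1*, a phosphatase of MAP kinases, rose by 1.13 ± 0.06, *Zbtb16* by 0.99 and *Sgk1*, a kinase of sodium transport, by 0.83. *Fkbp5*, a chaperone of the receptor, lay at 12.22 to 12.46 against 12.41 to 12.64 and was not called.

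Interferon-stimulated genes were higher in LeGO-GFP cells. Of 28 measured genes, 23 were called higher and none lower (1 lower at an unadjusted p under 0.05, none by the methods' t-test), against 10.8% of all genes called higher, and the list median was 1.55 against -0.01 over all genes. *Zbp1*, a sensor of Z-form nucleic acid, lay at 11.06, 10.63 and 10.90 against 7.73, 7.16 and 7.15 and was 11.5-fold higher (log2 difference 3.52 ± 0.21, SE, adjusted p = 0.00104). *Rsad2*, which encodes the antiviral enzyme viperin, lay at 7.95, 7.34 and 7.38 against 4.37, 4.46 and 4.35, above background on 1 of 3 siNEG arrays (8.94-fold higher, adjusted p = 0.001). *Oasl1*, a relative of the RNA-sensing synthetases, lay at 8.46, 8.17 and 8.38 against 5.19, 5.55 and 5.36 and was 7.82-fold higher (adjusted p = 0.00045). All LeGO-GFP arrays lay above all siNEG arrays for the 3 genes. *Ifi44* was 6.93-fold higher and *Ifit3*, which binds viral RNA caps with its family, differed by 2.58 ± 0.09.

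Among the 5 members that were not called was *Irf9*, a transcription factor of the interferon response, which lay at 11.49 to 11.74 against 11.85 to 12.04 (-0.32 ± 0.09, adjusted p = 0.0825). *Stat2*, *Herc6* and *Ifi27l2a* differed by 0.27, 0.43 and 0.81. *Isg15*, a ubiquitin-like modifier, was bright in both groups, at 14.58, 14.31 and 14.68 against 13.27, 12.52 and 12.92, and rose by 1.62 ± 0.22 (adjusted p = 0.0103). Within the shared slide, where 11% of all genes were called higher, 20 members were called higher and 1 lower, *Irf9* (adjusted p = 0.0442).

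The promoters of *Rsad2*, *Ifit3* and *Bst2* are shown because they are the 3 most changed interferon-stimulated genes whose window holds GAAANNGAAA, the core of the interferon-stimulated response element, on either strand. *Bst2* encodes tetherin, which holds budding virus at the cell surface, and rose by 1.84 ± 0.19. The stretches are chr12:26456453-26456702 on the minus strand (match at -120), chr19:34583279-34583528 on the plus strand (matches from -156) and chr8:71537473-71537722 on the minus strand (2 overlapping matches from -130).
Rsad2: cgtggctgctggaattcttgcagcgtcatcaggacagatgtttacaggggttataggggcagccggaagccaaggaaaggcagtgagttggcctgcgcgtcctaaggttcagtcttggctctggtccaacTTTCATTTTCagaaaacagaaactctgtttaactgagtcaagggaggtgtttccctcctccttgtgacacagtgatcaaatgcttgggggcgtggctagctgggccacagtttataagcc
Ifit3: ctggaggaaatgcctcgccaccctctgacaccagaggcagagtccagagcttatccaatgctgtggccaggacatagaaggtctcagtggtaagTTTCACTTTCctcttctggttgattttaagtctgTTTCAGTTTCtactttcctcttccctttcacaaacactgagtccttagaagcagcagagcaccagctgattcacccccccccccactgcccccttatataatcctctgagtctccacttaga
Bst2: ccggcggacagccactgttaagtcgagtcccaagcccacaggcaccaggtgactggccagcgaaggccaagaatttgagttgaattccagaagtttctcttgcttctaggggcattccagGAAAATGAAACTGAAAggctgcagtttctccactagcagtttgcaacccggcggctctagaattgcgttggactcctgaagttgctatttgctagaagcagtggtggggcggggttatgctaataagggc
Of 20 list members with a window, 11 held the letters (55%), against 3.99% of all genes with a window. *Zbp1*, the most changed member, had no window.

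Of 14 genes of antigen presentation, 11 were higher (78.6%) and 1 lower (7.14%), against 10.8% and 11.8% of all genes, with a median of 0.97. *H2-D1*, a class I heavy chain, lay at 11.35, 11.63 and 11.72 against 8.06, 8.27 and 8.59, 9.57-fold higher (adjusted p = 0.000781), and *H2-K1* was 2.55-fold higher. *Psmb8*, an immunoproteasome subunit, lay at 8.52, 8.06 and 8.30 against 4.95, 5.54 and 4.48 and was 9.89-fold higher, with 2 of 3 siNEG arrays above background. *B2m*, the class I light chain, lay at 14.00 to 14.16 against 12.84 to 13.00 and rose by 1.18 ± 0.07. *Nlrc5*, the transactivator of class I genes, rose by 2.05 ± 0.19 and was above background on 1 of 3 siNEG arrays. *H2-Q4* fell by 0.56 (adjusted p = 0.0266), and since class I genes are alike in sequence, the split among them is uncertain.

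Of 20 nucleic acid sensors and antiviral factors, 8 were higher (40%, against 10.8% of all genes) and 2 lower (10%). Their median was 0.14. Within the shared slide 7 were called higher and none lower, where 11% and 9.71% of all genes were. In the fit of the 6 arrays the share called lower was close to the 11.8% of all genes. *Ifitm3*, which blocks viral entry, lay at 14.26, 13.95 and 14.13 against 11.66, 11.35 and 11.46 and was 6.16-fold higher (adjusted p = 0.000577). *Sting1*, the adaptor of cytosolic DNA sensing, was 3.15-fold higher, and *Ddx58*, the RNA sensor RIG-I, 1.69-fold higher. *Ifitm1*, above background on 2 of 3 LeGO-GFP arrays, fell by 1.46 (adjusted p = 0.00658). Within the shared slide it differed by -1.53 without being called (adjusted p = 0.327). *Eif2ak2*, the kinase PKR, lay at 10.06 to 10.30 against 9.92 to 9.99 and was not called (difference 0.21 ± 0.08), and *Cgas* differed by -0.01.

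NF-kB targets and inflammatory mediators included *Saa3* and *Il6*, described above by their bounds. Of 23 genes, 14 were higher (60.9%) and 1 lower (4.35%), against 10.8% and 11.8% of all genes, with a median of 1.13. Of the 23, 7 were above background on no array of either group, among them *Ccl2*, which counts as called. *Lcn2*, an iron-trapping defence protein, lay at 17.45, 17.38 and 17.47 against 14.08, 13.95 and 14.12, 10.4-fold higher (log2 difference 3.38 ± 0.07, SE, adjusted p = 0.000109). *Cxcl5*, a neutrophil chemokine, lay at 10.44, 10.28 and 10.23 against 6.24, 6.50 and 6.35 and was 15.5-fold higher. *Il6*, the cytokine that drives the acute phase in liver, lay at 9.58, 9.25 and 8.99 against 3.95, 2.80 and 3.44, above background on every LeGO-GFP array and no siNEG array. *Csf2* was at least 2.36-fold higher. *Csf1*, the macrophage growth factor, rose by 1.73 ± 0.08, *Cxcl1* by 1.57 ± 0.06 and *Tnf*, above background on 1 of 3 siNEG arrays, by 1.89 ± 0.35. The pathway's own inhibitors differed, with *Tnfaip3* rising by 1.13 ± 0.13 and *Nfkbia* falling by 0.39 (adjusted p = 0.01). Within the shared slide *Nfkbia* differed by -0.29 without being called (adjusted p = 0.117).

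*Il6* was not a gene that only the virus arms expressed. In siNEG cells without hormones it lay at 8.79 (2 arrays, both above background), close to the 9.28 ± 0.30 (SD, n = 3) of hormone-treated LeGO-GFP cells. *Ankrd1* lay at 9.33 and *Fn1* at 15.48 in those untreated cells, against 11.67 and 16.43 in LeGO-GFP and 6.20 and 13.51 in siNEG hormone-treated cells. *Saa1* was different, at 6.55 in untreated and 6.54 in hormone-treated siNEG cells, and so was *H2-D1*, at 8.14 and 8.31. These levels are described and not tested.

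The promoters of *Il6*, *Csf1* and *Cxcl1* are shown as the 3 most changed list members above background on at least 3 of the 6 arrays whose window holds GGGANNTTCC, a core of the NF-kB site, on either strand. *Cxcl2*, called higher with 1 of 6 arrays above background, also has the letters and is not shown. The stretches are chr5:30012864-30013113 on the plus strand (match at -44), chr3:107760470-107760719 on the minus strand (match at -154) and chr5:90890995-90891244 on the plus strand (2 overlapping matches from -71).
Il6: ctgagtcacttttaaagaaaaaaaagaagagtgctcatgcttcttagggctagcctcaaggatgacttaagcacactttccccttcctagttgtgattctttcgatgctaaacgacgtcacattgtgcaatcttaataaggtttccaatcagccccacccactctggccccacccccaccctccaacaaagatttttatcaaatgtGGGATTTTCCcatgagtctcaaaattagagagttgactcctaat
Csf1: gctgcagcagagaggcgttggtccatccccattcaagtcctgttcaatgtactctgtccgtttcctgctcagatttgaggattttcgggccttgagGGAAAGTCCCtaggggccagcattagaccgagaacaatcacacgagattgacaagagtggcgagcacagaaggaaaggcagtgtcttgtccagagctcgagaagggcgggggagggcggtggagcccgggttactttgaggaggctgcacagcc
Cxcl1: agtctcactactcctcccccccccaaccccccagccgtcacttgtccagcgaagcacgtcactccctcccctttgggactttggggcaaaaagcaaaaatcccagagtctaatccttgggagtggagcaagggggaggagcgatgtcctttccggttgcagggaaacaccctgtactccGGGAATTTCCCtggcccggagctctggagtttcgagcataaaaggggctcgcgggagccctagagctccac
Of 16 list members with a window, 6 held the letters (37.5%), against 1.63% of all genes with a window. *Saa3* had a window without these letters, which says only that they are not in it.

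**Figure D3:**
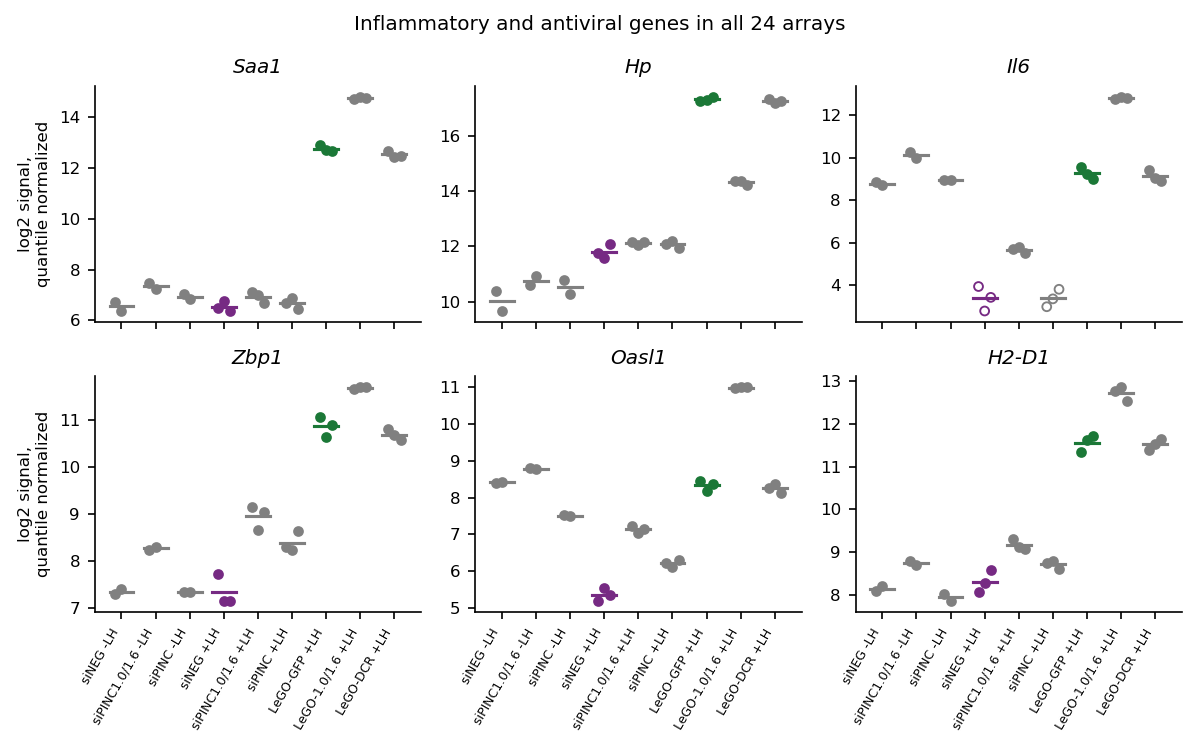
Log2 signal of 6 inflammatory and antiviral genes on all 24 arrays, by group. Each point is 1 array, open where the probe was not well above background, and each line is a group mean (green LeGO-GFP +LH, purple siNEG +LH). *Saa1* and *H2-D1* are high in the 3 lentivirus groups alone, while *Il6* and *Oasl1* are also high in the groups without hormones.

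Genes of the small RNA pathway went down in part. Of 13 genes, 5 were lower and none higher in limma, against 11.8% of all genes called lower, with a median of -0.50. At an unadjusted p under 0.05, 10 were lower and none higher, where 15403 of all 55681 probes passed in either direction. The methods' t-test called 5 lower and none higher, where it called 4232 of 55680 probes lower and 2942 higher. *Ago4*, an Argonaute protein, lay at 7.09, 7.01 and 6.91 against 8.50, 8.60 and 8.63, 2.98-fold lower (adjusted p = 0.000522). *Dicer1*, which cuts small RNA precursors, lay at 9.13 to 9.27 against 9.83 to 9.91 and fell by 0.70 ± 0.06. *Tnrc6c*, *Tnrc6b* and *Tnrc6a*, partners of Argonaute in silencing, fell by 1.00, 0.87 and 0.55. *Ago2*, the Argonaute that cuts siRNA targets, lay at 10.45 to 10.54 against 10.78 to 11.31 and was not called (-0.50 ± 0.15, adjusted p = 0.0973). *Drosha* differed by -0.02.

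Keratins moved in both directions. *Krt8* and *Krt18*, the luminal pair, lay at 13.22 to 13.39 against 13.79 to 14.05 and at 13.86 to 13.98 against 14.81 to 14.85, and fell by 0.64 and 0.91. *Krt7*, also on the luminal list, rose by 0.46 (adjusted p = 0.0482), and *Krt19* was not called. *Krt5*, a basal keratin, rose by 0.72 ± 0.07, and *Krt14*, its partner, lay at 15.32 to 15.38 against 14.71 to 15.13 without being called (adjusted p = 0.069). *Krt17*, a keratin of injured and basal epithelium, lay at 14.10, 14.15 and 13.85 against 11.01, 11.02 and 11.30 and was 7.60-fold higher (adjusted p = 0.000451). *Krt6a* and *Krt6b*, keratins of wounds and of early mammary progenitors, were 8.73-fold and 8.99-fold higher. *Krt15*, on the basal list, was 3.00-fold lower (log2 difference -1.59), and within the shared slide it differed by -1.57 without being called (adjusted p = 0.108).

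Of 16 luminal markers, 6 were higher (37.5%) and 3 lower (18.8%, median 0.38), against 10.8% and 11.8% of all genes. One of those called higher, *Foxa1*, was above background on no array of either group. Of 11 basal and myoepithelial markers, 6 were higher (54.5%) and 1 lower (9.09%, median 0.52). Within the shared slide 4 luminal markers were called higher and 3 lower, and 5 basal markers higher and none lower. There 11% of all genes were called higher and 9.71% lower. Among the luminal markers *Ly6a*, *Wnt4*, a ligand of progesterone-induced branching, and *Cd14*, a receptor of bacterial lipid, rose, by 3.76, 1.85 and 1.63. *Gata3*, a luminal transcription factor, fell by 0.76. Among the basal markers *Oxtr*, the oxytocin receptor, rose by 1.61 ± 0.12 and *Acta2*, smooth muscle actin, by 1.40 ± 0.12. Of 17 cornified envelope and squamous genes, 6 were higher (35.3%, against 10.8% of all genes) and none lower (against 11.8%), with a median of 0.20. At an unadjusted p under 0.05, 2 were lower, and none by the methods' t-test. *Sprr1a* was 7.50-fold higher and *Cnfn*, above background on 2 of 3 siNEG arrays, 3.98-fold higher. Of 19 epithelial junction genes, 6 rose (31.6%) and 2 fell (a share near the 11.8% of all genes) with a median of -0.04, and the tight junction protein *Cldn4* was 3.39-fold higher.

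**Figure D4:**
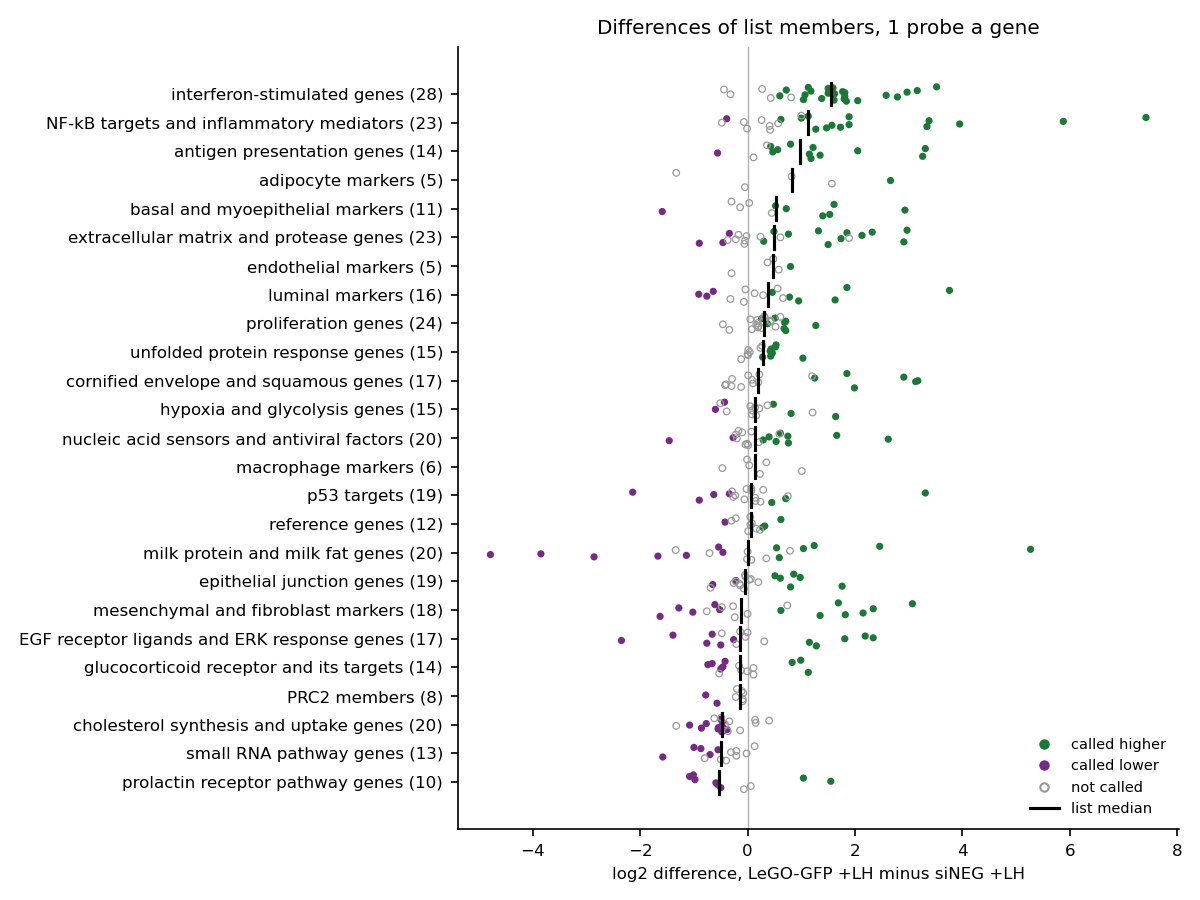
Log2 difference of every measured gene of 25 lists, 1 probe a gene, with the number of genes in brackets. Filled points were called (green higher, purple lower in LeGO-GFP), open points were not, and a black bar marks the list median, which runs from -0.53 for the prolactin receptor pathway to 1.55 for the interferon-stimulated genes.

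Of 23 extracellular matrix and protease genes, 11 were higher (47.8%, against 10.8% of all genes) and 3 lower (13%, against 11.8%), with a median of 0.49. Without both replicate 1 arrays 7 were called higher. *Fn1*, fibronectin, lay at 16.40, 16.45 and 16.43 against 13.56, 13.60 and 13.37 and was 7.53-fold higher (adjusted p = 0.000165). *Timp1*, an inhibitor of metalloproteinases, was 4.99-fold higher, *Tnc*, tenascin C, at least 6.2-fold higher and *Mmp3*, stromelysin, at least 1.18-fold higher with 2 of 3 LeGO-GFP arrays above background. *Thbs1*, thrombospondin 1, rose by 1.85 ± 0.05. *Col4a1*, of the basement membrane, fell by 0.90.

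The mesenchymal and fibroblast list split, 7 higher (38.9%) and 5 lower (27.8%) of 18, against 10.8% and 11.8% of all genes. Its median was -0.12. *Snai1*, a repressor of epithelial genes, was 5.07-fold higher and its relative *Snai2* fell by 1.28. *Zeb1* was at least 1.7-fold higher. *Col3a1* was 3.52-fold higher and *Lox*, which crosslinks collagen, 4.44-fold higher (2 of 3 siNEG arrays above background), while *Col1a1* fell by 1.63 (2 of 3 LeGO-GFP arrays above background) and *Vim*, vimentin, by 0.61. *Fabp4*, a fatty acid carrier on the adipocyte list, rose 6.30-fold, and *Adipoq*, which defines adipocytes, was above background on no array of either group. Of the 6 measured macrophage markers none was called by limma on the 6 arrays or by the methods' t-test (1 was lower at an unadjusted p under 0.05). Within the shared slide *Itgam* differed by -0.62 and was called lower. Of 5 endothelial markers *Pecam1* alone was called, differing by 0.79, and by 0.63 within the shared slide (adjusted p = 0.316).

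Of 17 EGF receptor ligands and ERK response genes, 5 rose (29.4%) and 6 fell (35.3%), against 10.8% and 11.8% of all genes, with a median of -0.14. The methods' t-test called 3 higher and 5 lower. *Hbegf* (above background on 1 of 3 siNEG arrays) and *Ereg*, ligands of the receptor, rose by 2.34 ± 0.21 and 1.15 ± 0.12, and *Myc* was 4.55-fold higher at 9.79 to 9.99 against 7.57 to 7.85. *Etv5*, an ETS factor induced by ERK, lay at 7.59, 7.12 and 7.42 against 9.83, 9.74 and 9.62 and was 5.10-fold lower. *Fosl1* was called higher with 1 LeGO-GFP array above background, but not within the shared slide (adjusted p = 0.171). Of 24 proliferation genes, 8 rose (33.3%, against 10.8% of all genes) and none fell (against 11.8%), with a median of 0.31. None fell at an unadjusted p under 0.05 or by the methods' t-test either. *Ccne1*, cyclin E, led at 2.40-fold, and *Mcm3*, *Mcm5* and *Aurka* differed by 0.69 to 0.71.

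Of 20 genes of cholesterol synthesis and uptake, 10 fell (50%, against 11.8% of all genes) and none rose (median -0.47, 1 higher at an unadjusted p under 0.05, none by the methods' t-test). Without both replicate 1 arrays 6 were called lower. *Msmo1* and *Fdps*, enzymes of the synthesis, were 1.70-fold and 1.46-fold lower. Of 15 genes of the unfolded protein response, 8 rose (53.3%, against 10.8%) and none fell (median 0.28, none lower at an unadjusted p under 0.05 or by the methods' t-test), with *Atf3* 2.05-fold and *Xbp1* 1.45-fold higher. The methods' t-test called 4 of the 15 higher, and 4 were also called without both replicate 1 arrays. Of 19 p53 targets, 3 rose (15.8%) and 4 fell (21.1%, median 0.07), *Sesn1*, a stress-induced sestrin, 4.41-fold lower and *Pmaip1*, the death-promoting NOXA, at least 2.47-fold higher. Of 15 hypoxia and glycolysis genes, 3 rose (20%) and 2 fell (13.3%, median 0.14), with *Adm*, adrenomedullin, 3.12-fold higher. The shares of the p53 list called higher and of the hypoxia list called lower were near those of all genes. Of 8 members of the Polycomb complex PRC2, 2 fell (25%, against 11.8% of all genes) and none rose (against 10.8%), with a median of -0.15. None was higher at an unadjusted p under 0.05 or by the methods' t-test. *Jarid2* fell by 0.78 and *Aebp2* by 0.57. These calls were lost in 6 and 9 of 18 alternatives, among them the fit without both replicate 1 arrays, which called none of the 8. Within the shared slide *Aebp2* differed by -0.42 without being called (adjusted p = 0.0969). Of 12 reference genes, 3 were called higher (25%, against 10.8% of all genes) and 1 lower (8.33%, against 11.8%), with a median of 0.06. The largest difference was *Tfrc* at 1.54-fold.

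The genes that the study discusses for *mPINC* differed between its controls as well. Of 22 measured, 11 were higher (50%) and 8 lower (36.4%) in LeGO-GFP cells, against 10.8% and 11.8% of all genes. Since the study chose some of them from its arrays, the counts are not independent evidence. *mPINC* itself lay at 6.38, 5.92 and 5.92 in LeGO-GFP cells and at 4.96, 4.93 and 4.72 in siNEG cells, above background on 3 and 2 arrays, and was 2.30-fold higher (log2 difference 1.20 ± 0.16, SE, adjusted p = 0.0091). In LeGO-1.0/1.6 cells its level was 13.44 and in untreated siNEG cells 7.44. *Cp*, the copper carrier ceruloplasmin, was 8.66-fold higher at 15.78 to 15.91 against 12.59 to 12.85. *Mal*, a lipid raft protein, *Edn1*, the peptide endothelin, and *Igfbp2* rose by 1.24, 0.88 and 0.80. *Itgb3*, an integrin chain, lay at 6.83 to 7.10 against 9.21 to 9.30 and was 4.83-fold lower, and *Ednra*, the endothelin receptor, was 2.44-fold lower. *Cidea*, a lipid droplet protein, differed by 0.59 (adjusted p = 0.0307) and *Dlk2* by -0.37 (adjusted p = 0.0437, and 0.298 within the shared slide). *Krt14*, *Mib2* and *Tug1* were not called, with differences of 0.45, -0.15 and -0.09.

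The replicate 1 pair gave the within-slide value. Without both replicate 1 arrays, 6402 probes were called (11.5%), and 5794 of them (90.5%) had the same sign in the replicate 1 pair. That pair did not enter the fit, and 66.4% of all probes had the same sign. In the fit of bright probes alone it was 93.0% of the called and 82.8% of all bright probes. For the 3470 called higher the median difference was 1.00 in replicates 2 and 3 and 0.64 in the replicate 1 pair, and for the 2932 called lower -0.91 and -0.69. In a limma fit of all 24 arrays with a term for each slide, where the contrast equals the replicate 1 pair and the spread comes from all groups, 8047 probes were called (14.5%). Of the 8859 probes, 5290 were called in that fit too and none of these with the opposite sign. The slide terms of the same fit called 975 probes for slide 2 against 1 and 1909 for slide 3 against 1. Only siNEG +LH lay on both slides 1 and 2, and only LeGO-GFP +LH on both slides 1 and 3. Each term therefore sets replicate 1 of 1 group against its replicates 2 and 3, so slide and culture cannot be told apart. The 24 largest rises and falls were chosen to have the same sign in the replicate 1 pair, so their sign there supports nothing.

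Another lentivirus group against another siRNA group shared no array with this comparison. In LeGO-DCR minus siPINC cells, 8628 of the 8859 called probes (97.4%) had the same sign, against 71.1% of all probes. In the fit of bright probes alone it was 97.6% of the called and 86.2% of all bright probes. The median difference was 0.63 for the probes called higher, against 0.83 in LeGO-GFP minus siNEG, and -0.58 for those called lower, against -0.74. These groups differ also in what was done to *mPINC*, and they lie on slides 3 and 2, as do replicates 2 and 3 here, so the slide cannot be told apart in this pair. LeGO-DCR cells had *Saa1* at 12.54, *Hp* at 17.24 and *Zbp1* at 10.69, and siPINC cells had them at 6.67, 12.08 and 8.40.

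**Figure D5:**
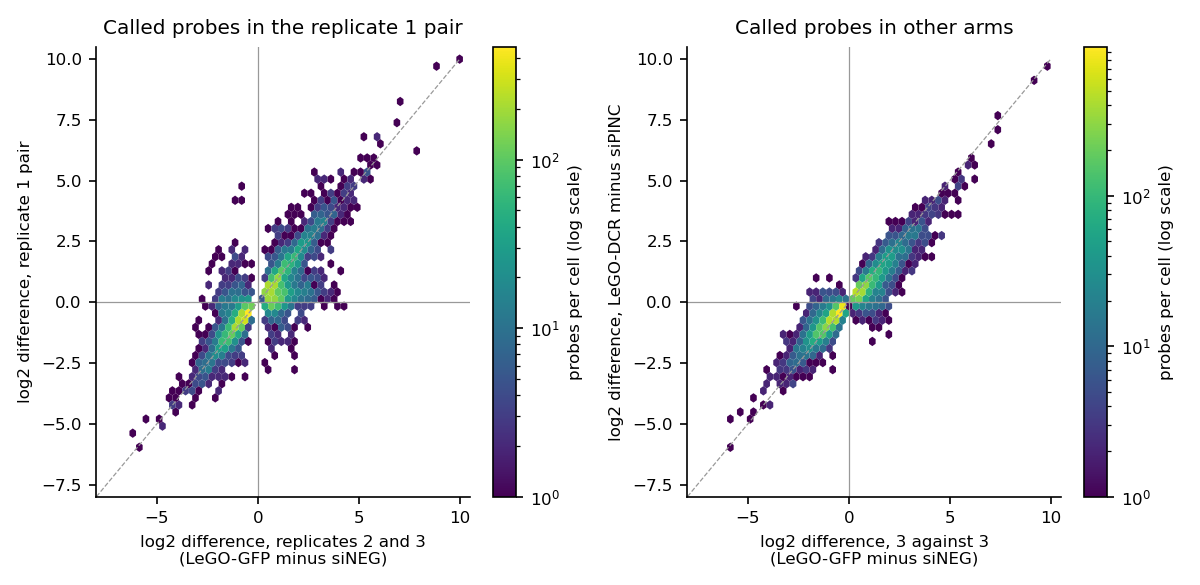
Log2 differences of called probes in arrays that did not call them, with colour for the number of probes on a log scale and a dashed line of equal values. Left, 6402 probes called in replicates 2 and 3 against their difference in the replicate 1 pair, and right, 8859 probes called in 3 against 3 arrays against LeGO-DCR minus siPINC. Most probes fall in the quadrants of equal sign, 90.5% on the left and 97.4% on the right.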

How the data were processed

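Mouse 1-colour Agilent arrays of 24 HC11 samples were analysed, of which 6 are compared here. The authors labelled 50 ng of total RNA, and the deposited scanner files hold spot intensity, background-corrected by the scanner software per the file headers, with a flag for spots well above background. A series table deposited by the authors holds log2 values per probe; it ranked probes as median signal minus local background does, and its scale and centring are not given in the sources used here. From the scanner files, control spots were left out and the log2 of the processed intensity was quantile normalized over the 24 arrays. Outlier spots were left out after that, and the remaining spots of a probe were averaged (R 4.3.3, limma 3.58.1, Python 3.11.15). Of 55681 probes, 26607 carried a symbol through RefSeq accessions (26582) or the study's tables (25), for 20158 genes.

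The fit was limma's lmFit and eBayes on the 6 arrays, Benjamini-Hochberg adjusted over all probes. The same fit was run on arrays simulated with each probe's mean and spread in the 6 arrays. With 3 against 3 simulated arrays it called 48%, 44% and 75% of the changes of 2-, 4- and 8-fold. With 2 against 2 simulated arrays it called none of the changed probes. A gene was read from its brightest probe, and other probes of a gene were not always called. *Csn3*, *Csn1s2b*, *F13a1*, *Gria4*, *Itgb3* and *Nr3c1* had 2 probes each, 1 of them called lower. *Rab38* and *Nlrc5* had 2 probes each, 1 of them called higher. No named gene had probes called in both directions. Where no array of a group had a probe well above background, a lower bound is given, the bright group's mean over the dim group's, with each dim array at the higher of its own and its lowest well-above-background signal. The number of arrays limits the precision. "The methods' t-test" is a t-test per probe on the same values. Named genes were the 12 largest rises and falls that were called, above background on all 6 arrays, not overlapping and of the same sign in the replicate 1 pair; 4 each that were at background in the other group; up to 4 called members of each of 26 lists; and genes the study discusses. Others are named as examples of their list, chosen after their values were seen. The members and lists were chosen with earlier results of these data known. Promoter windows came from RefSeq (GRCm38.p6). Alternatives covered normalization, background, filter, prior, arrays in the fit and each array left out. Some members of the lists are counted in them but not reported here by name.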

Additional observations from a re-analysis of the deposited data

How the results depend on the processing

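Against 8859 called probes, 75th percentile normalization called 5081, a fit of all 24 arrays 14067, and a fit with the replicate number as a block (replicate block) 5368. The labels do not say that equal numbers mark shared cultures, and the deviations of same-numbered arrays correlated at 0.359, 0.055 and 0.285, so the numbers were not taken to pair the samples. LeGO-GFP replicate 2 correlated best with siNEG replicate 3 (0.287). Leaving out each array in turn gave 5239 (without siNEG replicate 2) to 9359 calls (without LeGO-GFP replicate 1), with 5371 without LeGO-GFP replicate 2 and 5397 without LeGO-GFP replicate 3. The other alternatives gave 6402 to 12623 calls. No probe called in both the 6-array fit and an alternative had opposite signs. Calls were higher in LeGO-GFP cells for 41.3% of probes, against 48.2% with 75th percentile normalization and 54.2% without both replicate 1 arrays. The share with the same sign in the replicate 1 pair, 90.5%, was 99.2% with 75th percentile normalization, 94.5% with normexp, 93.0% for bright probes and 97.2% with the series table. In that order these shares rest on 368, 9804, 11475 and 2163 called probes, against 6402. Of all probes in each setting, 57.3%, 71.6%, 82.8% and 71.4% had the same sign. The share in LeGO-DCR against siPINC, 97.4%, was 98.3%, 97.8%, 97.6% and 96.8% in the same order. Of all probes in each setting it was 78.4%, 74.5%, 86.2% and 74.2%. The cause of these differences was not tested.

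Of 125 called named genes, 87 were called with the same sign under all 18 alternatives that measured them, and none of the 125 reversed. The calls lost most often were *Dlk2* and *Hk2* (12 alternatives each), *Fosl1* (11), *Bnip3* and *Cidea* (10 each). Of 936 list counts under alternatives, 744 were within 1.5 times the count given. Probes near background limit small differences, since 24021 to 29974 of 55681 probes were well above it on the 6 arrays.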
